A study of Mus musculus with 24 samples.

Results

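Cyp7a1, Cyp8b1, Cyp27a1, Cyp7b1, Slc27a5, Baat, Slc10a1, Abcb11, Abcc2 and Abcb4 are 10 hepatocyte genes of bile acid synthesis, conjugation and transport. They were chosen by gene symbol from the 35275 genes of the deposited count table, and each symbol matched 1 gene. The 10 genes passed the filter on low counts in both fits, and their lowest count in any library was 54 reads, for Cyp7a1. Their RNA was measured in 24 libraries of fasted mouse liver, 4 from each of 6 genotypes. The mice were 8 to 10 weeks old and fasted for 24 h. The study's methods describe chow-fed males on a C57BL/6 background for 4 of the 6 genotypes, and do not describe the mice lacking Ppara. The study asked whether active mTORC1 signaling, caused by loss of its inhibitor Tsc1, suppresses fasting-induced Pparα signaling and ketogenesis.

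Control mice are called wild type in the labels, and the study's methods describe them as littermates with floxed Tsc1 and Cpt2 alleles. Tsc1 L-/- mice lack Tsc1 in the liver. Cpt2 L-/- mice lack carnitine palmitoyltransferase 2, an enzyme required for mitochondrial oxidation of long-chain fatty acids, in the liver. Double-knockout (DKO) mice, labelled Tsc1Cpt2 L-/-, lack both. These deletions were made with Albumin-Cre, which acts mainly in hepatocytes, so the other cells of the liver keep the genes. Ppara KO and Cpt2 L-/- Ppara KO mice lack Pparα, the fatty acid-sensing nuclear receptor that drives the fasting program of the liver, alone or together with liver Cpt2. How the Ppara allele was made is not given in the sources used here. Control, Tsc1 L-/-, Cpt2 L-/- and DKO libraries form one set of Tsc1 and Cpt2 loss, and control, Cpt2 L-/-, Ppara KO and Cpt2 L-/- Ppara KO libraries form another of Cpt2 and Ppara loss. The control and Cpt2 L-/- libraries are shared by both sets, so comparisons that use them are not independent of each other.

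Bile acids are made from cholesterol in hepatocytes by a classic pathway that starts with Cyp7a1 and an alternative pathway that starts with Cyp27a1. They are then joined to an amino acid, pumped into the bile canaliculus, reabsorbed in the gut and taken up again from portal blood. The nuclear receptor Fxr (Nr1h4) senses bile acids and raises the repressor Shp (Nr0b2) and the export pump Abcb11, while synthesis through Cyp7a1 falls when bile acids return to the liver.

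Total counts per library ranged from 14470968 to 20371204. Ppara was at 259 ± 28.6 CPM (read counts scaled to a common library size by the TMM method, SD, n = 4) in control, 27.4 ± 16.3 in Ppara KO and 50.8 ± 27.4 in Cpt2 L-/- Ppara KO livers. Tsc1 was at 38.5 ± 1.32 CPM in control, 24.5 ± 4.56 in Tsc1 L-/- and 16.4 ± 1.24 in DKO livers. Cpt2 RNA, by counts per gene, was at 98.6 ± 7.04 CPM in control, 91.7 ± 10.4 in Cpt2 L-/- and 96.2 ± 17.5 in DKO livers, and at 58.3 ± 24.8 in Ppara KO and 57.7 ± 43.6 in Cpt2 L-/- Ppara KO livers. It was not detectably lower in Cpt2 L-/- (log2 difference -0.11, edgeR adjusted p = 0.605) or DKO (-0.02, 0.929) than in control livers, or in Cpt2 L-/- Ppara KO than in Ppara KO livers (-0.01, 0.981), and counts per gene do not show a deleted exon. Tsc1 L-/- livers, at 140.1 ± 25.9 CPM, were called higher than control (0.51, edgeR adjusted p = 0.0374), and DKO livers lower than Tsc1 L-/- (-0.53, 0.00819). The libraries also differed in 5 genes that were picked after their values were seen. Cd1d2 was between 11.0 and 61.7 CPM in the 12 control, Tsc1 L-/- and DKO libraries and at most 0.868 CPM in the 12 Cpt2 L-/-, Ppara KO and Cpt2 L-/- Ppara KO libraries, and Rps3a3, Gm6472, Hist1h2bq and Hist1h2al split the libraries in the same way without overlap. Comparisons between these sets of 12 libraries are Cpt2 L-/- with control, Ppara KO with control and DKO with Cpt2 L-/-, and both interactions draw on both sets. In these, genotype and whatever else divides the libraries cannot be told apart. DKO with Tsc1 L-/-, DKO with control, Tsc1 L-/- with control, and Cpt2 L-/- Ppara KO with Cpt2 L-/- or Ppara KO are comparisons within 1 of the 2 sets.

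Hepatocyte markers were high in every library, but their level differed between genotypes. The summed level of Alb, Ttr, Apoa1, Serpina1c and Fgb, 5 of 6 listed genes found in the table, was 58661 to 71428 CPM in control, 36946 to 58179 in Tsc1 L-/-, 28553 to 52956 in Cpt2 L-/-, 25060 to 29855 in DKO, 47939 to 75892 in Ppara KO and 33149 to 51601 in Cpt2 L-/- Ppara KO livers. The summed level of 8 pericentral hepatocyte genes, the zone in which Cyp7a1 is mainly expressed, was 15466 to 17030 CPM in control livers and lower in each of the other genotypes, with 6197 to 10458 in Tsc1 L-/-, 6022 to 8881 in Cpt2 L-/-, 6009 to 7508 in DKO, 4540 to 8315 in Ppara KO and 6516 to 9632 in Cpt2 L-/- Ppara KO livers. The 7 periportal genes summed to 4873 to 6776 CPM in DKO, 10782 to 15886 in Tsc1 L-/- and 8256 to 13306 in control livers, and 6 of the 7 were called lower in DKO against Tsc1 L-/- livers (median log2 fold change -2.44). Of the 5 hepatocyte markers, 4 were called lower in DKO against Tsc1 L-/-, 3 in DKO against control and 3 in Cpt2 L-/- against control livers. In DKO against Cpt2 L-/- livers 2 were lower and 1 higher, and 1 was lower in Cpt2 L-/- Ppara KO than in Ppara KO livers. A higher level was called for 1 in Ppara KO against control and 1 in Cpt2 L-/- Ppara KO against Cpt2 L-/- livers. None was called between Tsc1 L-/- and control livers. Markers of other liver cells also differed between groups. In DKO against control livers 6 of 6 stellate cell, 4 of 5 Kupffer cell, 3 of 5 endothelial and 1 of 6 cholangiocyte genes were called lower. So were 6 of 8 pericentral and 6 of 7 periportal genes, with 1 periportal gene higher. In Cpt2 L-/- against control livers 3 of 6 stellate cell, 1 of 6 cholangiocyte, 6 of 8 pericentral and 3 of 7 periportal genes were called lower. There 1 endothelial and 1 periportal gene were higher. In Ppara KO against control livers 3 of 8 pericentral, 1 of 5 Kupffer cell and 1 of 6 stellate cell genes were called lower. Higher there were 2 of 6 cholangiocyte, 1 of 5 endothelial and 1 of 8 pericentral genes, and 1 of 7 periportal genes went each way. In DKO against Tsc1 L-/- livers 3 of 5 Kupffer cell, 3 of 8 pericentral, 1 of 6 stellate cell, 1 of 5 endothelial and 1 of 6 cholangiocyte genes were called lower. In Tsc1 L-/- against control livers 4 of 8 pericentral genes were called lower and 2 of 7 periportal genes higher. In DKO against Cpt2 L-/- livers 3 of 5 Kupffer cell, 2 of 5 endothelial, 1 of 6 stellate cell and 4 of 7 periportal genes were called lower, and 2 of 8 pericentral and 1 of 6 cholangiocyte genes higher. In Cpt2 L-/- Ppara KO against Cpt2 L-/- livers 2 of 5 Kupffer cell, 4 of 8 pericentral and 2 of 7 periportal genes were called higher and 1 of 6 stellate cell genes lower. Between Cpt2 L-/- Ppara KO and Ppara KO livers 2 of 5 Kupffer cell genes were called higher in the former, 2 of 6 cholangiocyte and 1 of 7 periportal genes lower, 2 of 5 endothelial genes lower and 1 higher, and 1 of 6 stellate cell genes each way. Kupffer cell genes summed to 96.3 to 138 CPM in DKO, 192 to 311 in Tsc1 L-/- and 167 to 292 in control livers, and stellate cell genes to 151 to 191, 162 to 240.1 and 252 to 329. Endothelial genes summed to 155 to 263.8 CPM in DKO, 277 to 329 in Tsc1 L-/- and 256 to 291 in control livers. The 7 cholangiocyte genes summed to between 20.6 and 68.8 CPM in any library, and none of these lists had a gene at 0 in a whole group. In bulk RNA, fewer cells of a type and less RNA per cell cannot be told apart, and the part of these marker shifts in the results that follow was not tested. The mice behind the libraries are not identified in the labels beyond a replicate number, so p-values measure the spread between these libraries.

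Per transcript length, the bile acid genes of control liver spanned a range of levels in the deposited FPKM values (fragments per kilobase of transcript, scaled to library depth). Slc10a1, at 438 ± 44.6 FPKM (SD, n = 4), Cyp8b1, at 418 ± 159, and Slc27a5, at 351 ± 40.4, were the highest of the 10, and their libraries overlapped. Cyp7b1, Cyp7a1 and Abcb11 were the lowest, at 58.4 ± 19.8, 57.9 ± 31.2 and 53.9 ± 6.37 FPKM, and also overlapped. In DKO livers Cyp8b1 stood at 539.6 ± 103 FPKM while Cyp7a1 had 3.98 ± 1.49 and Abcb11 7.74 ± 1.02.

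**Figure D1:**
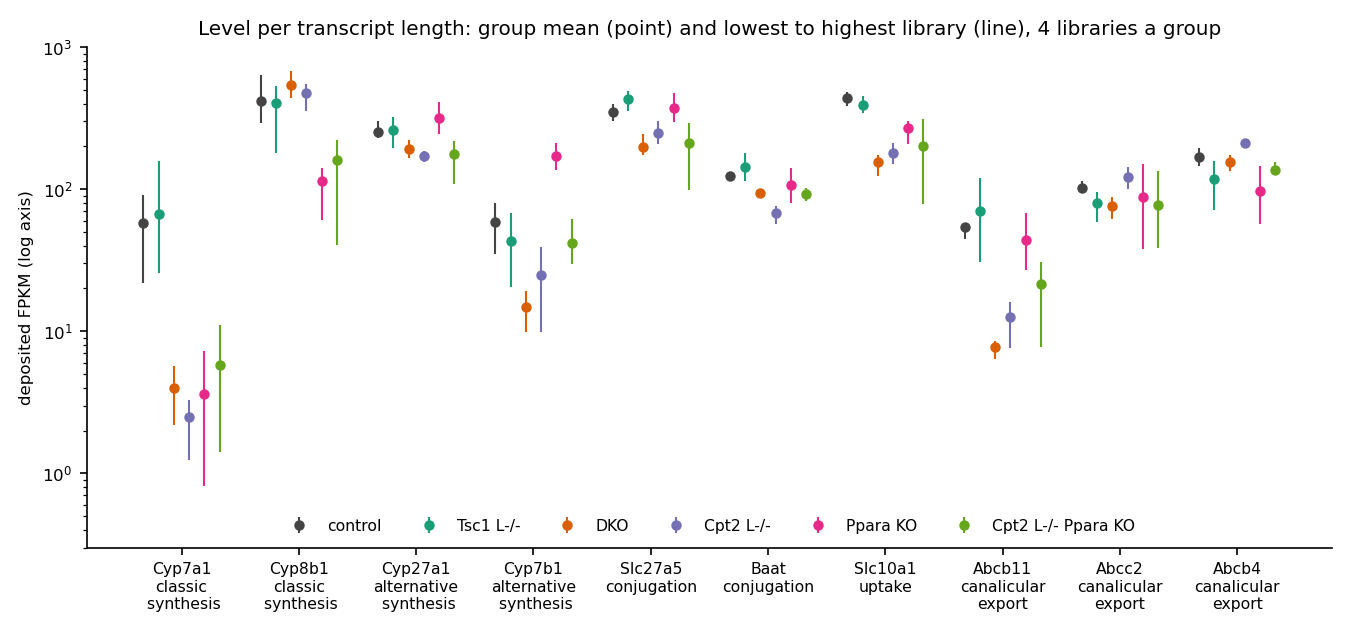
Deposited FPKM (log axis) of the 10 genes in the 6 genotypes, as the group mean (point) and the lowest to highest of 4 libraries (line). Cyp7a1 is at 21.9 FPKM or more in each control and Tsc1 L-/- library and at 11.1 or less in each library of the other 4 genotypes, whereas the group means of Abcc2 lie closest together.

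The number of bile acid genes called, at an adjusted p under 0.05 in the edgeR quasi-likelihood test, differed between comparisons, as did the share of all genes called. In DKO against Tsc1 L-/- livers 7 of 10 genes were called and the 7 were lower, where 32.2% of the 13641 tested genes were called and 15.2% were called lower. In DKO against control livers 8 of 10 were called lower, where 36.4% of genes were called and 17.1% lower. In Cpt2 L-/- against control livers 7 of 10 were called lower, where 31.0% of genes were called and 14.9% lower. Tsc1 L-/- and control livers differed in none of the 10, with 6.64% of genes called. At an unadjusted p under 0.05 there were 2 (Abcc2 and Abcb4), and DESeq2 called 1 (Abcc2). In DKO against Cpt2 L-/- livers 1 of 10, Abcc2, was called lower, where 18.3% of genes were called. The count was 4 without Tsc1 L-/- replicate 3, 3 without Tsc1 L-/- replicate 2 and 2 without Cpt2 L-/- replicate 2. Those fits called 19.9%, 18.2% and 18.03% of all genes, and the share ranged from 10.3% to 19.9% over the libraries left out.

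In Ppara KO against control livers 4 of 10 were called, 3 lower and Cyp7b1 higher, where 29.0% of the 13615 tested genes were called. In Cpt2 L-/- Ppara KO against Ppara KO livers 4 of 10 were called lower, where 25.5% of genes were called and 12.6% lower. A fit of those 8 libraries alone called 1 of the 10, Cyp7b1, and 0.868% of genes, and the count was 2 without Ppara KO replicate 4, where 20.0% of genes were called. In Cpt2 L-/- Ppara KO against Cpt2 L-/- livers 1 of 10, Cyp8b1, was called, where 18.4% of genes were called. The count was 0 without Cpt2 L-/- replicate 4, 3 without Ppara KO replicate 1 or 2, and 2 without Ppara KO replicate 4 or Cpt2 L-/- Ppara KO replicate 1 or 4. Of all genes, 8.93% were called without Cpt2 L-/- replicate 4, and 18.3%, 18.9% and 20.1% without Ppara KO replicate 1, 2 and 4. Without Cpt2 L-/- Ppara KO replicate 1 and 4 the shares were 13.3% and 21.6%. The median log2 fold change over the 10 genes was -0.95 in DKO against Tsc1 L-/-, -0.79 in DKO against control, -0.81 in Cpt2 L-/- against control, -0.30 in Ppara KO against control and -0.09 in Tsc1 L-/- against control, and the median over all tested genes was between -0.02 and 0.03 in each comparison. Over the 5 hepatocyte markers the median was -1.24 in DKO against Tsc1 L-/-, -1.14 in DKO against control and -0.76 in Cpt2 L-/- against control. It was -0.20 in Ppara KO against control and 0.01 in Tsc1 L-/- against control.

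**Figure D2:**
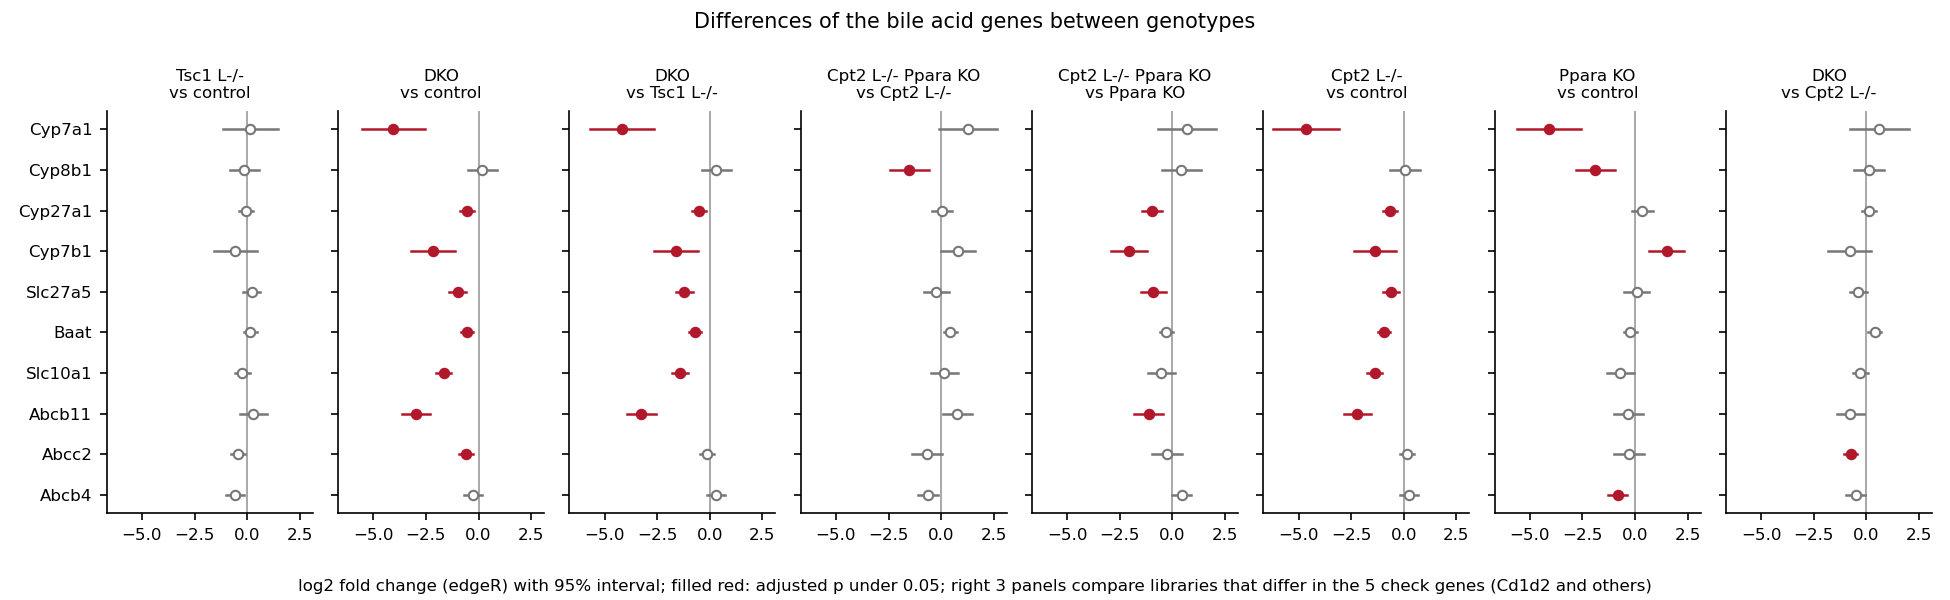
Log2 fold change of each gene (point) with its 95% interval (line) in 8 comparisons, where filled red marks an edgeR adjusted p under 0.05. Cyp7a1 and Abcb11 lie furthest below 0 in the comparisons of DKO with control or Tsc1 L-/- and of Cpt2 L-/- with control, and Cyp8b1 is called only in the comparisons of Ppara loss.

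Cyp7a1 (ENSMUSG00000028240, chromosome 4, 6265612 to 6275633 in GRCm38, minus strand) encodes cholesterol 7-hydroxylase, the rate-limiting enzyme of the classic pathway. Control libraries held 97.2, 447, 173 and 320.0 CPM and Tsc1 L-/- libraries 212, 698, 101 and 135 CPM. DKO libraries held 12.9, 21.9, 18.6 and 8.55 CPM, and Cpt2 L-/- libraries 8.74, 13.1, 5.23 and 14.0 CPM. Ppara KO libraries held 27.7, 7.42, 3.75 and 21.6 CPM, and Cpt2 L-/- Ppara KO libraries 26.0, 50.2, 18.5 and 5.17 CPM. Every control and Tsc1 L-/- library thus lay above every library of the other 4 genotypes, and within both high groups the libraries themselves spread widely. Among the 4 low genotypes each neighbour in the order of means overlapped the next.

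In livers with Ppara, loss of Cpt2 was accompanied by a fall of Cyp7a1 to a small share of its level. DKO livers were 18.3-fold lower than Tsc1 L-/- livers (log2 fold change -4.19 ± 0.70 SE, edgeR adjusted p = 0.00062), a comparison within libraries alike in Cd1d2 and the other 4 genes. Without Tsc1 L-/- replicate 2, the highest library, the log2 fold change was -3.25 (adjusted p = 0.000682). DKO livers were 16.5-fold lower than control livers (-4.04 ± 0.70, edgeR adjusted p = 0.000665), and Cpt2 L-/- livers 25.3-fold lower (-4.66 ± 0.72, edgeR adjusted p = 0.000368). The fall was called in each of the 24 alternatives run for each of these 3 comparisons. Tsc1 L-/- and control livers did not differ detectably in Cyp7a1 (log2 difference 0.15, 95% interval -1.17 to 1.48). The direction turned without Tsc1 L-/- replicate 2 (-0.79, edgeR adjusted p = 0.441), and was also below 0 without control replicate 1 (-0.11) and with the replicate block (-0.01).

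Ppara KO livers had 17.0-fold less Cyp7a1 RNA than control livers (-4.09 ± 0.72, edgeR adjusted p = 0.000677), between libraries that also differ in Cd1d2. No comparison within either set of 12 libraries has Ppara lost while Cpt2 is present. In Cpt2 L-/- livers, where Cyp7a1 was already low, further loss of Ppara did not lower it (log2 difference 1.28, 95% interval -0.11 to 2.67, edgeR adjusted p = 0.187). In Ppara KO livers, further loss of Cpt2 made no detectable difference to Cyp7a1, with a higher mean (log2 difference 0.70, 95% interval -0.67 to 2.07, edgeR adjusted p = 0.444). The interaction of the deletions, the log2 change with Cpt2 loss in Ppara KO livers minus that in livers with Ppara, was 5.37 ± 0.96 (edgeR adjusted p = 0.00169). The 2 genes called in this interaction were Cyp7a1 and Baat, where 24.0% of genes were called. With 1 library left out the count was 4 without Cpt2 L-/- Ppara KO replicate 1, 3 without Ppara KO replicate 4, 1 in the 9 cases in which Baat was lost, and 2 otherwise. The first 2 of these fits called 22.3% and 22.7% of all genes, and the share ranged from 17.3% to 27.2% over the libraries left out. The interaction of Tsc1 with Cpt2 loss was not detected for any of the 10 genes by edgeR, where 2.38% of genes were called and 2 of the 10, Slc27a5 and Abcb11, had an unadjusted p under 0.05. DESeq2 also called 0 of the 10.

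**Figure D3:**
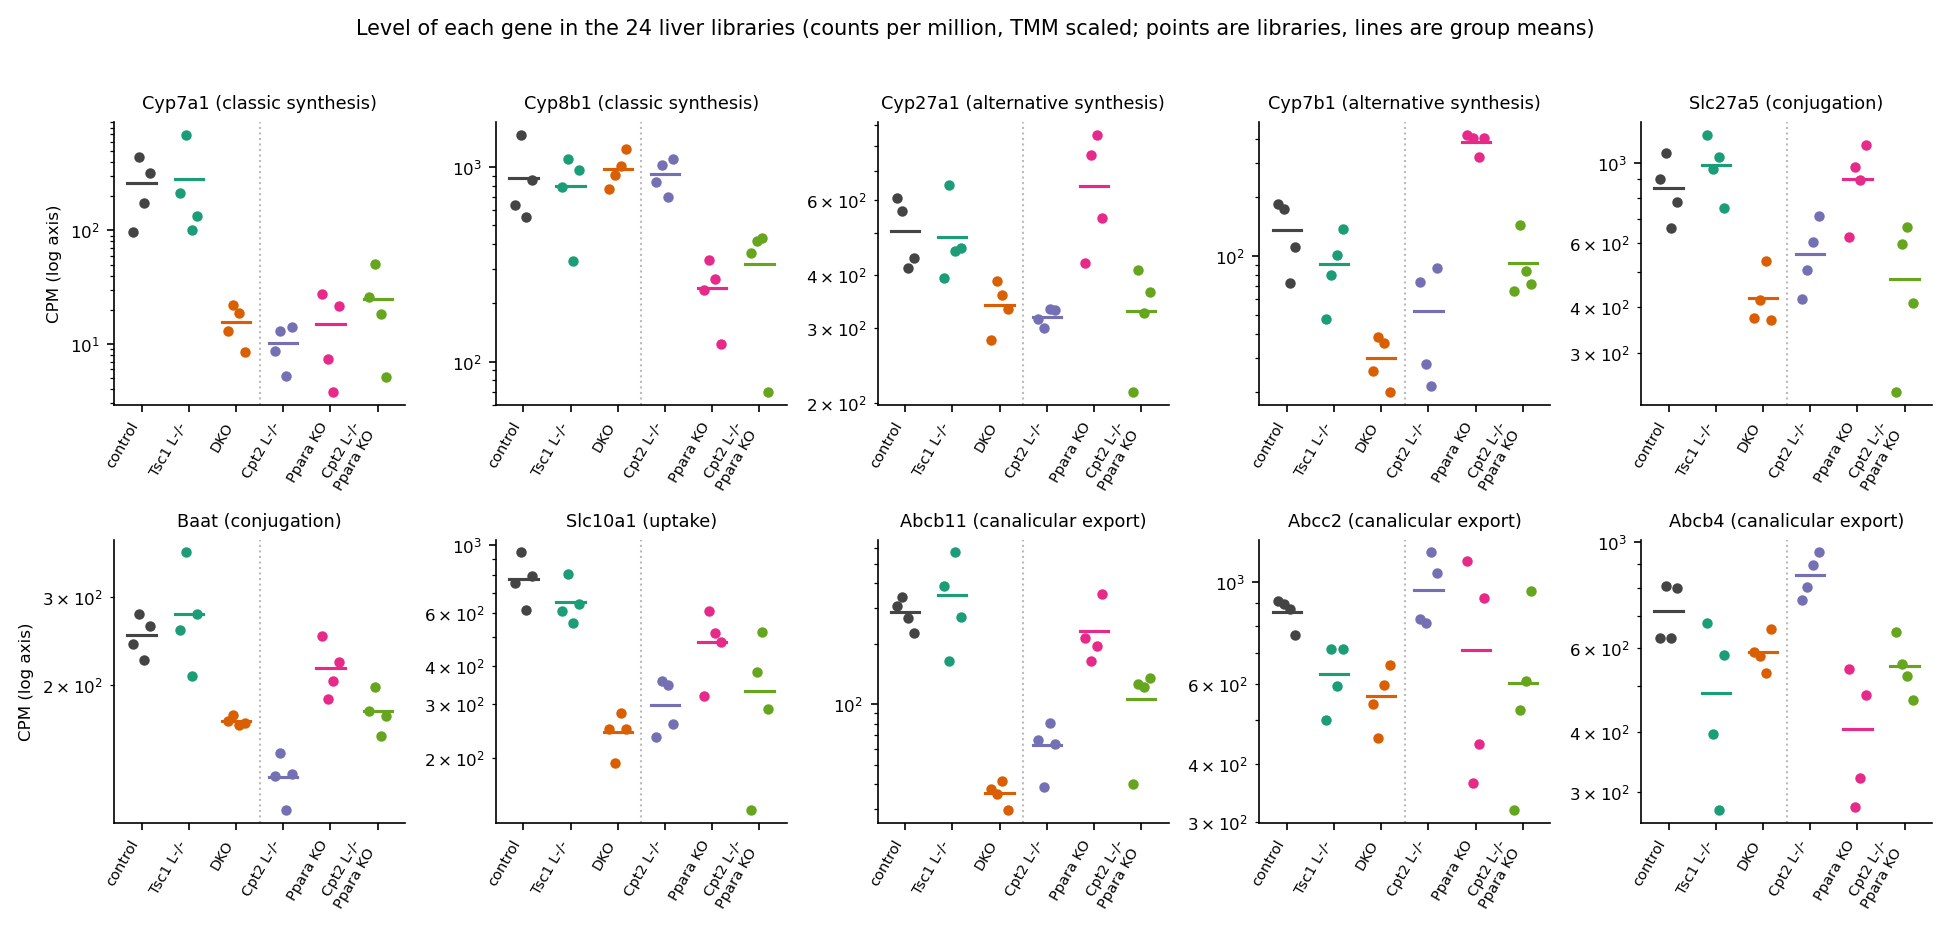
Level of each gene in CPM (log axis) in every library (points) with the group mean (line), 4 libraries a genotype, where the dotted line divides the libraries with Cd1d2 RNA (left) from those nearly without (right). Cyp7a1 is at 97.2 CPM or more in control and Tsc1 L-/- libraries and at 50.2 CPM or less in all others, while Cyp7b1 is highest in Ppara KO.

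Cyp8b1 (ENSMUSG00000050445, chromosome 9, 121914356 to 121916305, minus strand) encodes the sterol hydroxylase that directs synthesis toward cholic acid. Its promoter is shown because it is one of the synthesis genes and the only one of the 10 called lower with Ppara loss both with and without Cpt2. It is given as the 250 bases before the start site from RefSeq on GRCm38.p6, with an exact TATAAA at bases -31 to -26 in capitals, which was searched on both strands and is found in 13.6% of 32851 RefSeq promoters of 300 bases.
Cyp8b1 promoter, chr9:121916306-121916555, minus strand: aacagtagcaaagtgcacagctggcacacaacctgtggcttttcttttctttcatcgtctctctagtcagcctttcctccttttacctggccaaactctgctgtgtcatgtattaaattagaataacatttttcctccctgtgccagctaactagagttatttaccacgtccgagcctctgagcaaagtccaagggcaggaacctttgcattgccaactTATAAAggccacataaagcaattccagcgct

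Control libraries held 640.0, 1463, 549 and 852 CPM of Cyp8b1, and Cpt2 L-/- libraries 839, 1016, 704 and 1102 CPM. In Ppara KO there were 234, 331, 265 and 122 CPM, and Cpt2 L-/- Ppara KO libraries 360.4, 414, 430.1 and 69.4 CPM. Tsc1 L-/- libraries ranged from 330.0 to 1101 CPM and DKO libraries from 768 to 1239 CPM. The 8 libraries without Ppara lay below each control and Cpt2 L-/- library, and the Tsc1 L-/- library at 330.0 CPM was the only other one in their range. Ppara KO livers were 3.70-fold below control livers (log2 fold change -1.89 ± 0.45 SE, edgeR adjusted p = 0.0045). Livers of Cpt2 L-/- Ppara KO mice were 2.86-fold below Cpt2 L-/- livers (-1.52 ± 0.44, edgeR adjusted p = 0.0255), a comparison within libraries nearly without Cd1d2. That call was lost without Cpt2 L-/- Ppara KO replicate 1 (adjusted p = 0.0544) or Cpt2 L-/- replicate 4 (0.0698), in a fit of the 8 libraries alone (0.0506) and with no filter on low counts (0.0504).

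Loss of Cpt2 left Cyp8b1 near the control level. The log2 difference was 0.06 in Cpt2 L-/- against control (95% interval -0.64 to 0.76), 0.18 in DKO against control (-0.52 to 0.88) and 0.31 in DKO against Tsc1 L-/- livers (-0.39 to 1.01). These are the same comparisons in which Cyp7a1 fell.

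Cyp27a1 (ENSMUSG00000026170, chromosome 1, 74713574 to 74737892, plus strand) encodes the mitochondrial sterol 27-hydroxylase that opens the alternative pathway. Control libraries held 605, 564, 415 and 438 CPM, Tsc1 L-/- libraries 392, 649, 454 and 462 CPM and DKO libraries 280.5, 387, 358 and 333 CPM. Cpt2 L-/- libraries held 314, 299, 332 and 329.7 CPM, Ppara KO libraries 425, 766, 853 and 543 CPM and Cpt2 L-/- Ppara KO libraries 211, 411, 326 and 363 CPM. The 12 libraries without Cpt2 lay below each library with Cpt2 except the lowest Tsc1 L-/- library, at 392 CPM, which 1 Cpt2 L-/- Ppara KO library exceeded. The fall with Cpt2 loss was smaller than for Cyp7a1 in livers with Ppara, at 1.59-fold in Cpt2 L-/- against control (log2 fold change -0.67 ± 0.16, edgeR adjusted p = 0.00416) and 1.43-fold in DKO against Tsc1 L-/- (-0.51 ± 0.16, edgeR adjusted p = 0.02). Cyp27a1 was also 1.96-fold lower in Cpt2 L-/- Ppara KO against Ppara KO livers (-0.97 ± 0.23, edgeR adjusted p = 0.01), where no fall of Cyp7a1 was seen (log2 difference 0.70, edgeR adjusted p = 0.444). The call in DKO against Tsc1 L-/- was lost without Tsc1 L-/- replicate 2 (adjusted p = 0.0884) or DKO replicate 1 (0.0688) and in the fit of 24 libraries (0.0914), and that against Ppara KO in the fit of those 8 libraries alone (0.082). In DKO against control livers Cyp27a1 was 1.47-fold lower (-0.56 ± 0.16, edgeR adjusted p = 0.0117), which did not pass without control replicate 1 (0.0523) or in the fit of 24 libraries (0.0584).

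Cyp7b1 (ENSMUSG00000039519, chromosome 3, 18071950 to 18243338, minus strand) encodes the oxysterol hydroxylase that acts after Cyp27a1. Ppara KO libraries held 419, 401, 322 and 403 CPM, above each of the other 20 libraries. Control libraries held 184, 173, 72.6 and 111 CPM, Tsc1 L-/- libraries 47.4, 79.6, 101 and 138 CPM and DKO libraries 25.6, 38.3, 35.8 and 20.0 CPM. Cpt2 L-/- libraries held 73.7, 28.0, 21.6 and 86.6 CPM and Cpt2 L-/- Ppara KO libraries 66.4, 145, 84.2 and 71.8 CPM. DKO was the lowest group and did not overlap with control or Tsc1 L-/-, whereas Cpt2 L-/- split into 2 libraries near the DKO level and 2 in the control range.

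Cyp7b1 was higher in Ppara KO than in control livers, by 2.84-fold (log2 fold change 1.51 ± 0.39, edgeR adjusted p = 0.00867), a comparison across the Cd1d2 division. With Cpt2 lost, within libraries alike in Cd1d2, the difference with Ppara loss did not pass (0.81, 95% interval -0.01 to 1.63, edgeR adjusted p = 0.158). Livers of Cpt2 L-/- Ppara KO mice were 4.21-fold below Ppara KO livers (-2.07 ± 0.40, edgeR adjusted p = 0.00464), which was called in each of 24 alternatives. DKO livers were 3.03-fold below Tsc1 L-/- livers (-1.60 ± 0.48, edgeR adjusted p = 0.021) and 4.47-fold below control livers (-2.16 ± 0.49, edgeR adjusted p = 0.00383). The first of these was lost without Tsc1 L-/- replicate 4, DKO replicate 1 or DKO replicate 4 (adjusted p from 0.0533 to 0.0621). The 2.58-fold lower level in Cpt2 L-/- against control livers (-1.37 ± 0.47, edgeR adjusted p = 0.0423) was lost in 12 of 24 alternatives, 9 of them with a single library left out: control replicate 1, 2 or 4, Tsc1 L-/- replicate 2 or 3, Cpt2 L-/- replicate 2 or 3, and DKO replicate 1 or 3 (adjusted p from 0.0525 to 0.115). In the set of Cpt2 and Ppara loss, an interaction was not detected for Cyp7b1 (-0.70, 95% interval -1.85 to 0.45).

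**Figure D4:**
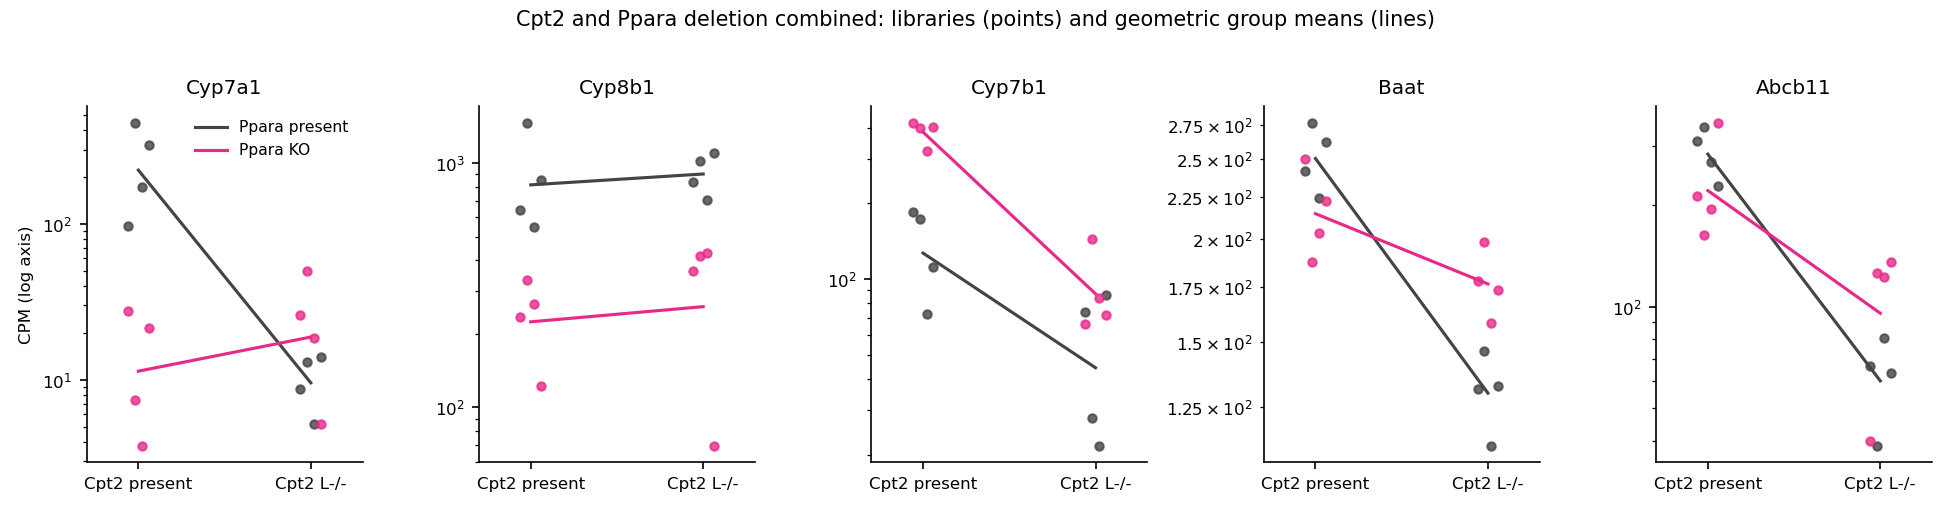
CPM (log axis) of 5 genes in livers with Cpt2 (left of each panel) or without (right), with Ppara present (grey: control, Cpt2 L-/-) or lost (pink: Ppara KO, Cpt2 L-/- Ppara KO), as libraries (points) and geometric group means (lines). Cyp7a1 is low in 3 of the 4 genotypes, Cyp8b1 follows Ppara, and Cyp7b1 is highest with Cpt2 present and Ppara lost.

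Slc27a5 (ENSMUSG00000030382, chromosome 7, 12988346 to 12998192, minus strand) encodes bile acyl-CoA synthetase, which activates bile acids before conjugation. Control libraries held 899, 1063, 662 and 781 CPM, Tsc1 L-/- libraries 1195, 961, 1038 and 750.5 CPM and DKO libraries 373, 418, 538 and 368 CPM, and DKO lay below each library of the other pair. Cpt2 L-/- libraries held 422, 507, 607 and 712 CPM, of which the highest overlapped control. DKO livers were 2.30-fold below Tsc1 L-/- (log2 fold change -1.20 ± 0.19, edgeR adjusted p = 0.000131) and 1.98-fold below control livers (-0.99 ± 0.19, edgeR adjusted p = 0.00064). The 1.52-fold lower level in Cpt2 L-/- against control (-0.60 ± 0.19, edgeR adjusted p = 0.0222) was lost without control replicate 1 or 2 or Cpt2 L-/- replicate 1 or 2 (adjusted p from 0.0585 to 0.0956) and in the fit of 24 libraries (0.109). Ppara KO libraries held 625 to 1117 CPM and Cpt2 L-/- Ppara KO libraries 233 to 666 CPM, a 1.89-fold difference (-0.92 ± 0.29, edgeR adjusted p = 0.0279) that was lost without Ppara KO replicate 2, 3 or 4 or Cpt2 L-/- Ppara KO replicate 1 (adjusted p from 0.0542 to 0.0705) and in the fit of those 8 libraries (0.113).

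Baat (ENSMUSG00000039653, chromosome 4, 49489422 to 49506557, minus strand) encodes the transferase that joins the activated bile acid to taurine or glycine. Control libraries held 242, 277, 224 and 262 CPM, Tsc1 L-/- libraries 258, 369, 208 and 278 CPM, DKO libraries 169, 174, 166 and 168 CPM and Cpt2 L-/- libraries 131, 146, 112 and 133 CPM. These groups formed 3 steps that did not overlap: control with Tsc1 L-/-, then DKO, then Cpt2 L-/-. Baat was 1.93-fold lower in Cpt2 L-/- than in control (log2 fold change -0.95 ± 0.14, edgeR adjusted p = 7.58e-05), 1.47-fold lower in DKO than in control (-0.55 ± 0.14, edgeR adjusted p = 0.00521) and 1.63-fold lower in DKO than in Tsc1 L-/- livers (-0.70 ± 0.14, edgeR adjusted p = 0.00096). The step from Cpt2 L-/- to DKO did not pass the test (0.39, edgeR adjusted p = 0.0597), but passed in 6 of 24 alternatives, without Tsc1 L-/- replicate 2 (0.0258) or 3 (0.0301), with the replicate number as a block (0.0273), with 2 groups in the fit (0.0271) and with limma on FPKM (0.0239 and 0.0238). Ppara KO libraries held 250.5, 187, 204 and 222 CPM and Cpt2 L-/- Ppara KO libraries 178, 198, 158 and 174 CPM, which overlapped (log2 difference -0.28, 95% interval -0.61 to 0.04). Each Cpt2 L-/- Ppara KO library lay above each Cpt2 L-/- library, without passing the test (0.44 ± 0.15, edgeR adjusted p = 0.0529), and this passed in 5 of 24 alternatives: by DESeq2 (0.00972), in the fit of 24 libraries (0.0402), with the replicate number as a block (0.0484) and without Ppara KO replicate 1 or 2 (0.0498 each). The interaction of Cpt2 with Ppara loss was 0.67 ± 0.22 for Baat (edgeR adjusted p = 0.034), and this call was lost in 12 of 23 alternatives, 9 of them with a single library left out: control replicate 1, 2 or 4, Ppara KO replicate 2 or 3, Cpt2 L-/- replicate 1, 3 or 4, or Cpt2 L-/- Ppara KO replicate 2 (adjusted p from 0.0527 to 0.0788).

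Slc10a1 (ENSMUSG00000021135, chromosome 12, 80953185 to 80968079, minus strand) encodes Ntcp, the sodium-coupled transporter that takes up conjugated bile acids from portal blood. Control libraries held 753, 948, 614 and 792 CPM, Tsc1 L-/- libraries 609, 805, 558 and 641 CPM, DKO libraries 249, 193, 280.3 and 249 CPM and Cpt2 L-/- libraries 235, 358, 348 and 258 CPM. Every DKO and Cpt2 L-/- library lay below every control and Tsc1 L-/- library. DKO livers were 2.67-fold below Tsc1 L-/- (log2 fold change -1.42 ± 0.17, edgeR adjusted p = 1.13e-05), DKO 3.16-fold below control (-1.66 ± 0.18, edgeR adjusted p = 1.85e-06) and Cpt2 L-/- 2.60-fold below control livers (-1.38 ± 0.17, edgeR adjusted p = 1.57e-05), and each was called in 24 of 24 alternatives. The Ppara KO libraries had 319.9, 609, 515 and 480.4 CPM, below each control library, and did not pass the test (-0.70 ± 0.31, edgeR adjusted p = 0.0964), although they did in 3 of 24 alternatives, without Cpt2 L-/- Ppara KO replicate 1 (0.0244), with the replicate number as a block (0.0372) and with 2 groups in the fit (0.0392). Cpt2 L-/- Ppara KO libraries held 135, 382, 519.8 and 290.4 CPM and overlapped with both Ppara KO and Cpt2 L-/-.

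Abcb11 (ENSMUSG00000027048, chromosome 2, 69238282 to 69342616, minus strand) encodes the bile salt export pump of the canalicular membrane, and Fxr bound with Rxr at an inverted repeat of the half-site AGGTCA with 1 base between (IR1) is known to drive it. Its promoter is shown because Abcb11 had the largest fall of the 10 genes after Cyp7a1 in DKO against Tsc1 L-/-, DKO against control and Cpt2 L-/- against control livers. It is given as the 250 bases before the start site from RefSeq on GRCm38.p6, and capitals mark 2 matches to IR1 with at most 2 mismatches over the 12 half-site bases.
Abcb11 promoter, chr2:69342617-69342866, minus strand: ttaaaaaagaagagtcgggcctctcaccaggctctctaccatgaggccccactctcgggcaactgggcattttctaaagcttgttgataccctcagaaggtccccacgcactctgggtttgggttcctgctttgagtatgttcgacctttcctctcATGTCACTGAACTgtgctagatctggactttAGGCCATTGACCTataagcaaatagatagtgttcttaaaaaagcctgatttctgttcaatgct
The match at bases -63 to -51 from the start site had 1 mismatch and that at -94 to -82 had 2. A match to IR1 at this tolerance was found in 1.14% of the 32851 RefSeq promoters. Promoters of 6 of the 10 genes were in the table (Cyp8b1, Cyp27a1, Slc10a1, Abcb11, Abcc2 and Abcb4; Slc10a1 with 2 start sites), and Abcb11 was the only one of these with a match to IR1. None of the 6 held a direct repeat of AGGTCA with 1 base between (DR1) at the same tolerance, a pattern found in 3.86% of all promoters, which says only that these letters are not in this window.

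Control libraries held 309, 341, 269 and 227 CPM of Abcb11 and Tsc1 L-/- libraries 388, 164, 568 and 271 CPM. DKO libraries held 37.9, 35.6, 41.6 and 29.6 CPM, and Cpt2 L-/- libraries 66.6, 38.6, 81.0 and 63.4 CPM. The DKO and Cpt2 L-/- libraries were all at 81.0 CPM or less and those of control and Tsc1 L-/- all at 164 CPM or more. DKO livers were 9.54-fold below Tsc1 L-/- (log2 fold change -3.25 ± 0.33, edgeR adjusted p = 4.61e-06) and 7.83-fold below control livers (-2.97 ± 0.32, edgeR adjusted p = 6.26e-06), and Cpt2 L-/- livers 4.59-fold below control livers (-2.20 ± 0.31, edgeR adjusted p = 8.86e-05). DKO livers stood below Cpt2 L-/- livers in mean, with 1 overlapping library, and this did not pass the test (-0.77 ± 0.30, edgeR adjusted p = 0.0889), but passed without Tsc1 L-/- replicate 2 (0.0302) or 3 (0.0404) or Cpt2 L-/- replicate 2 (0.0399), by DESeq2 (0.0337) and with 2 groups in the fit (0.0149).

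Ppara KO libraries held 213, 163, 195 and 351 CPM of Abcb11 and overlapped control (log2 difference -0.32, 95% interval -1.0 to 0.36). Cpt2 L-/- Ppara KO libraries held 40.0, 126, 122 and 136 CPM, 3 of them close together and replicate 1 far lower. They were 2.18-fold below Ppara KO livers (-1.12 ± 0.33, edgeR adjusted p = 0.0213), which no longer passed without Ppara KO replicate 4 (adjusted p = 0.0668) or in the fit of those 8 libraries (0.0924). Without replicate 1 of Cpt2 L-/- Ppara KO, Abcb11 was called higher in Cpt2 L-/- Ppara KO than in Cpt2 L-/- livers (adjusted p = 0.0124), which was not the case with that library (0.77, edgeR adjusted p = 0.108). The interaction of Cpt2 with Ppara loss was 1.08 ± 0.46 for Abcb11 (edgeR adjusted p = 0.0915) and passed without that library (0.0117) or without Ppara KO replicate 4 (0.0411).

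Abcc2 (ENSMUSG00000025194, chromosome 19, 43782192 to 43840740, plus strand) encodes Mrp2, the canalicular pump for conjugated bilirubin and glutathione conjugates. Its promoter, the 250 bases before the RefSeq start site on GRCm38.p6, is shown as the only one of the 6 with an exact AAGGTCA on either strand, at bases -50 to -44, in capitals, an extended half-site bound by Lrh-1 (Nr5a2) and found in 4.72% of RefSeq promoters. The RefSeq start site lies downstream of the gene start in the deposited table, so the marked bases fall inside the gene as the table gives it.
Abcc2 promoter, chr19:43782058-43782307, plus strand: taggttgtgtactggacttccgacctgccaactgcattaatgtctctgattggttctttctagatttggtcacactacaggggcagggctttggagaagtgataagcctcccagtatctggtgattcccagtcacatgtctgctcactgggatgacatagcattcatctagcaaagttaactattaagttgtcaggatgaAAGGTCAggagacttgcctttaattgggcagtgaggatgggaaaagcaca
Control libraries held 909, 897, 875 and 766 CPM, Tsc1 L-/- libraries 499, 715, 594 and 714 CPM, DKO libraries 543, 456, 596 and 659 CPM and Cpt2 L-/- libraries 833, 812, 1160.0 and 1044 CPM. Both groups without Tsc1 lay below each control and Cpt2 L-/- library. DKO livers were 1.51-fold below control (log2 fold change -0.60 ± 0.16, edgeR adjusted p = 0.00648) and 1.69-fold below Cpt2 L-/- livers (-0.75 ± 0.16, edgeR adjusted p = 0.00356). In a fit of the 24 libraries together both calls were lost (adjusted p = 0.136 and 0.114). Tsc1 L-/- livers were 1.36-fold below control livers without passing the test (-0.45 ± 0.16, edgeR adjusted p = 0.0992). Ppara KO and Cpt2 L-/- Ppara KO libraries ranged from 364 to 1111 and from 318 to 955 CPM.

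Abcb4 (ENSMUSG00000042476, chromosome 5, 8893721 to 8959225, plus strand) encodes Mdr2, which moves phosphatidylcholine into bile. Control libraries held 631, 810.0, 631 and 803 CPM and Cpt2 L-/- libraries 758, 806, 894 and 951 CPM. In Ppara KO livers Abcb4 was at 543, 279, 320.3 and 479 CPM, while Cpt2 L-/- Ppara KO libraries held 648, 557, 525 and 467 CPM, DKO libraries 588, 578, 531 and 656 CPM and Tsc1 L-/- libraries 677, 397, 274 and 581 CPM. Ppara KO lay below each control library, at 1.77-fold (log2 fold change -0.83 ± 0.22, edgeR adjusted p = 0.00919), and Cpt2 L-/- Ppara KO lay below each Cpt2 L-/- library, at 1.55-fold, without passing the test (-0.63 ± 0.22, edgeR adjusted p = 0.0529). It passed without Ppara KO replicate 1, 2 or 4 or Cpt2 L-/- Ppara KO replicate 1 (adjusted p from 0.036 to 0.0417), by DESeq2 (0.0177) and in the fit of 24 libraries (0.0493). Against control, Tsc1 L-/- livers overlapped at a lower mean (-0.57 ± 0.21, edgeR adjusted p = 0.109), a difference that passed without Tsc1 L-/- replicate 1 (0.0292). Unlike the pump Abcb11, Abcb4 was not called lower with Cpt2 loss in any comparison, with a log2 difference of 0.30 in DKO against Tsc1 L-/- (95% interval -0.13 to 0.73) and 0.24 in Cpt2 L-/- against control livers (-0.19 to 0.67).

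The other genes of bile acid metabolism were taken from a list of 46, of which 42 passed the filter. In DKO against Tsc1 L-/- livers 19 of the 42 were called lower and 6 higher, where 15.2% of all genes were called lower and 32.2% in either direction. In DKO against control livers 21 were lower and 3 higher (17.1% and 36.4% of all genes), and in Cpt2 L-/- against control livers 18 lower and 2 higher (14.9% and 31.0%). The median log2 fold change of the 42 was -0.51, -0.65 and -0.42 in these comparisons. By role, 6 of 15 synthesis genes were called lower and 3 higher in DKO against Tsc1 L-/- livers, as were 8 and 2 of 13 transport genes and 5 and 1 of 14 regulatory genes. Akr1d1, the reductase that forms the saturated ring of bile acids, was at 135 ± 51.6 CPM in Tsc1 L-/- and 4.66 ± 2.60 CPM in DKO livers (log2 fold change -4.84 ± 0.39, edgeR adjusted p = 1.49e-06) and fell also in DKO against control (-5.15 ± 0.40, edgeR adjusted p = 5.66e-07) and Cpt2 L-/- against control livers (-4.29 ± 0.38, edgeR adjusted p = 2.74e-06).

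Akr1c6, a hydroxysteroid dehydrogenase, fell from 584 ± 134 CPM in control to 22.8 ± 5.85 in Cpt2 L-/- livers (-4.68 ± 0.52, edgeR adjusted p = 2.15e-05) and to 47.5 ± 20.4 in DKO livers (-3.60 ± 0.49, edgeR adjusted p = 8.78e-05). Nr0b2 (Shp), the repressor induced by Fxr, was at 22.2 ± 19.3 CPM in Tsc1 L-/- and 0.635 ± 0.807 in DKO livers (-5.12 ± 1.07, edgeR adjusted p = 0.00283), where single DKO libraries held as few as 1 read, and the log2 fold change was -6.55 without DKO replicate 1 (adjusted p = 0.00318) and -4.35 without Tsc1 L-/- replicate 3 (0.00792). Slco1a4, an organic anion carrier, was lower in DKO than in Tsc1 L-/- livers (-3.44 ± 0.50, edgeR adjusted p = 0.000188), as was Cyp2c70, which makes muricholic acids of mice (-5.46 ± 1.07, edgeR adjusted p = 0.00191). Tsc1 L-/- replicate 3 carried much of the Cyp2c70 difference, which was -3.35 without it (adjusted p = 0.00048), and DESeq2 gave it no adjusted p. The uptake carrier Slco1a1 (-2.11 ± 0.26, edgeR adjusted p = 2.09e-05) and the sodium-coupled transporter Slc10a2 (-3.42 ± 0.83, edgeR adjusted p = 0.00694) were lower in Cpt2 L-/- than in control livers, and Slc10a2 also in DKO than in control livers (-3.43 ± 0.83, edgeR adjusted p = 0.00584).

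**Figure D5:**
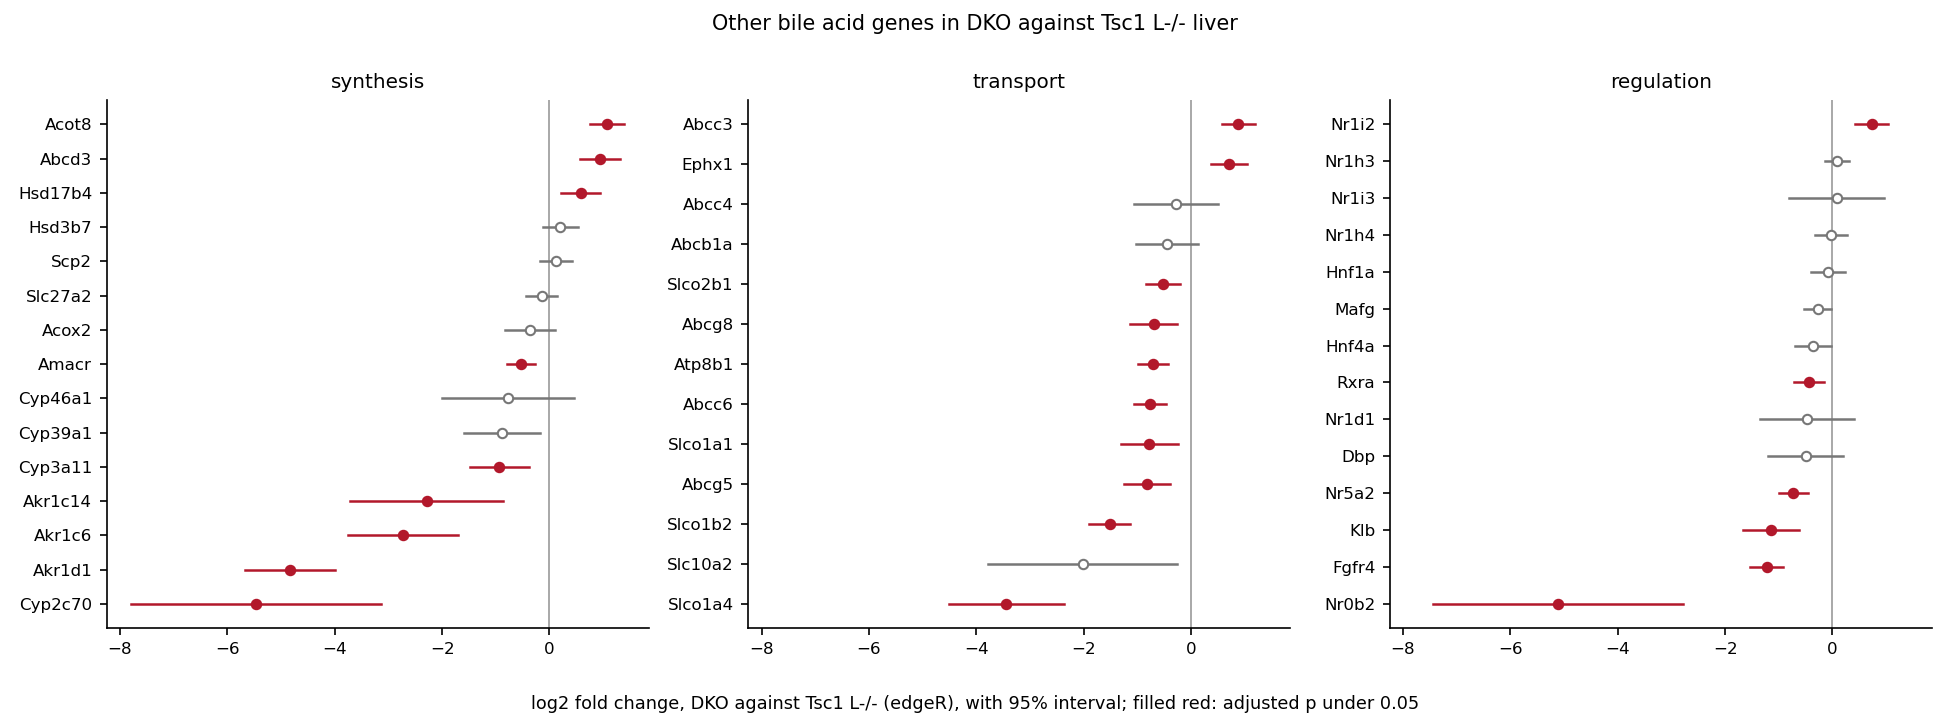
Log2 fold change in DKO against Tsc1 L-/- livers (point) with its 95% interval (line) for 42 other genes of bile acid metabolism, by role, where filled red marks an edgeR adjusted p under 0.05. Akr1d1, Cyp2c70 and Nr0b2 lie below -4, while Acot8 and Abcd3 lie above 0.

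Against control livers, Tsc1 L-/- livers had 3 of the 42 called higher and 5 lower, where 6.64% of all genes were called. Cyp46a1, a cholesterol hydroxylase, was at 32.9 ± 19.3 CPM in Tsc1 L-/- and 2.33 ± 2.47 in control livers (log2 fold change 3.77 ± 0.67, edgeR adjusted p = 0.00472), with 4.82 without control replicate 3, and a fit of these 8 libraries alone did not call it (adjusted p = 0.0622). It was also higher in DKO than in Cpt2 L-/- livers (3.34 ± 0.67, edgeR adjusted p = 0.00507). The peroxisomal genes Abcd3 (-0.86 ± 0.17, edgeR adjusted p = 0.0062) and Acot8 (-0.61 ± 0.15, edgeR adjusted p = 0.0203) and the xenobiotic receptor Nr1i2 (-0.83 ± 0.14, edgeR adjusted p = 0.00172) fell in Tsc1 L-/- livers, and the Acot8 call was lost without control replicate 2 or Tsc1 L-/- replicate 1, with 2 groups in the fit and in the fit of 24 libraries. In DKO against Cpt2 L-/- livers 1 of the 42 was higher and 4 were lower, where 18.3% of all genes were called. Among them were the sterol transporter Abcg8 (-0.75 ± 0.21, edgeR adjusted p = 0.0208, lost without Cpt2 L-/- replicate 3 or DKO replicate 2, with limma and in the fit of 24 libraries), the repressor Mafg (-0.51 ± 0.12, edgeR adjusted p = 0.00771, lost in the fit of 24 libraries) and Nr1i2 (-0.43 ± 0.14, edgeR adjusted p = 0.0426), whose call was lost in 12 of 24 alternatives.

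With Ppara lost, 16 of the 42 were lower and 4 higher than in control livers, where 29.0% of all genes were called. Hsd17b4, the peroxisomal enzyme of side-chain shortening, fell from 970.0 ± 168 to 176 ± 16.1 CPM (log2 fold change -2.47 ± 0.25, edgeR adjusted p = 4.17e-06). Akr1c6 (-2.07 ± 0.52, edgeR adjusted p = 0.00715, and -2.99 without Ppara KO replicate 1) and the clock output factor Dbp (-2.08 ± 0.45, edgeR adjusted p = 0.00272) were lower too, while Cyp2c70 rose from 19.4 ± 8.31 to 246 ± 83.7 CPM (3.66 ± 0.44, edgeR adjusted p = 2.46e-05). In Cpt2 L-/- livers, loss of Ppara came with 10 of the 42 higher and 7 lower, where 18.4% of all genes were called. There Slco1a4 (3.75 ± 0.37, edgeR adjusted p = 6.44e-06), Akr1c6 (3.41 ± 0.55, edgeR adjusted p = 0.000781), Akr1d1 (2.38 ± 0.44, edgeR adjusted p = 0.0021) and Cyp2c70 (2.16 ± 0.43, edgeR adjusted p = 0.00361, lost in the fit of 24 libraries) were higher in Cpt2 L-/- Ppara KO than in Cpt2 L-/- livers. Akr1d1 thereby stood at 44.4 ± 23.8 CPM in Cpt2 L-/- Ppara KO and 8.58 ± 2.61 CPM in Cpt2 L-/- livers.

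Against Ppara KO livers, Cpt2 L-/- Ppara KO livers had 5 of the 42 higher and 7 lower, a share near the 25.5% called over all genes. Cyp2c70 (-3.84 ± 0.44, edgeR adjusted p = 0.000322) and Slc10a2 (-1.83 ± 0.37, edgeR adjusted p = 0.00542) were lower, and Dbp (1.70 ± 0.44, edgeR adjusted p = 0.0142) and Cyp3a11, a cytochrome that hydroxylates bile acids (1.57 ± 0.34, edgeR adjusted p = 0.00634), were higher, and of these 4 the fit of the 8 libraries alone called Cyp2c70. In the Cpt2 by Ppara interaction 9 of the 42 were called with a value above 0 and 1 below, a share near the 24.0% of all genes. In the Tsc1 by Cpt2 interaction edgeR called 0 of the 42, with 9 at an unadjusted p under 0.05, where 2.38% of all genes were called.

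The genes whose 6 group means were most like those of Cyp7a1, Cyp8b1 and Cyp7b1 were sought among 13986 others by the root mean square difference of centred log2 CPM. For Cyp7a1 they were RP24-245K18.4 at 0.513, Car5a at 0.545 and Ido2 at 0.609, against a standard deviation of 2.08 over the groups for Cyp7a1 itself. For Cyp8b1 they were Decr2 at 0.156, Adtrp at 0.193 and Rtn4 at 0.198. For Cyp7b1 they were Oasl1 at 0.212, Mug2 at 0.226 and Mx2 at 0.279. The 6 means share the same 24 libraries, and the likeness is a description over 6 points.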

How the data were processed

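RNA of 24 livers was sequenced per the labels with stranded TruSeq mRNA libraries and single 75-base reads on an Illumina NextSeq. The authors deposited raw counts per gene in 1 table and FPKM in another, each with the 24 libraries, and the FPKM values matched the counts in 100% of cases within 0.1%. The submitters' processing notes name, with no role or order, Bowtie 0.12.2, TopHat, STAR 2.5, STAR-Fusion, HTSeq 0.6.1, DESeq2 and edgeR and the builds mm8 and mm9. The gene coordinates in the table were set beside GENCODE M21 on GRCm38, where 24919 of 34490 matched genes and 8 of the 10 bile acid genes had identical coordinates, so they are given as GRCm38.

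Deposited counts were fitted in edgeR 4.0.16 (R 4.3.3) with TMM scaling, filterByExpr (minimum count 10, minimum total 15) and robust quasi-likelihood tests, in 1 fit of 16 libraries for Tsc1 and Cpt2 loss (13641 genes) and 1 for Cpt2 and Ppara loss (13615 genes). Each comparison had its Benjamini-Hochberg adjustment over all genes tested, with a threshold of 0.05. Intervals of 95% used the moderated degrees of freedom. CPM values used TMM factors over the 24 libraries. Alternatives were DESeq2 1.42.0, RLE scaling, no filter, all 24 libraries in 1 fit, 2 groups in the fit, the replicate number as a block, limma 3.58.1 on log2 of FPKM plus 1 or 0.1 (genes with FPKM of at least 0.5 in 4 libraries), and each library left out. The fitting code was tested on simulated data. No 2 libraries of a group were near duplicates (36 pairs, lowest mean chi-square per gene 24.1). Promoters were read from RefSeq for GRCm38.p6 and searched over 300 bases, 250 before and 50 after the start site. The 10 genes and all gene lists were chosen with earlier results of these data known. For each comparison the other genes named were up to 4 listed genes with the largest changes that passed the test without overlap between the 4 and 4 libraries, at a mean of at least 1 CPM.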

Additional observations from a re-analysis of the deposited data

Results flagged for a closer look

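Abcb11 in replicate 1 of Cpt2 L-/- Ppara KO livers stood far below the other libraries of its group, at 40.0 CPM against 122 CPM for the next and 136 CPM for the highest. The gap was 0.861 of the range. It was the only one of 60 groups of 4 libraries that passed Dixon's criterion, which chance passes about 1 time in 20. Replicate 1 was not apart in Abcb11 alone, as it was the lowest of its group for 6 of the 10 genes. Over all genes its mean chi-square per gene was 159, 224 and 263 against replicates 2, 3 and 4, which had 56.5 to 97.1 among themselves. Without it the interaction of Cpt2 with Ppara loss also passed for Slc10a1 (1.11, edgeR adjusted p = 0.0239), which it did not with it (0.85, 0.162).

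The change of Cyp7a1 with Cpt2 loss differed between livers with and without Ppara, with an interaction of 5.37 on the log2 scale (edgeR adjusted p = 0.00169). That of Baat differed by 0.67 (edgeR adjusted p = 0.034). The Baat interaction no longer passed in 12 of 23 alternatives, 9 of which left out 1 library, and that of Cyp7a1 passed in each of the 23. Both interactions draw on libraries that also differ in Cd1d2 and 4 other genes, and the part of that difference in them was not tested.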

How the results depend on the processing

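Of 2380 values recomputed under the alternatives, 2294 kept their side of the threshold, 51 lost the call and 35 gained one. The sign changed in 40 values, which belong to 15 of the 100 gene-by-comparison results, and none of the 15 was called (lowest edgeR adjusted p = 0.596). Counts of bile acid genes called out of 10 that moved by over 1.5 times were as follows. For Tsc1 L-/- against control DESeq2 called 1. For DKO against Cpt2 L-/-, DESeq2 called 2, limma 2 with either pseudocount, 2 groups in the fit 4 and the 24-library fit 0. For Cpt2 L-/- Ppara KO against Cpt2 L-/-, DESeq2 and the 24-library fit called 3 each, and no filter or 2 groups 0. For Cpt2 L-/- Ppara KO against Ppara KO, 2 groups called 1. For the Cpt2 by Ppara interaction, no filter and both limma fits called 1.

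With 1 library left out, the counts ranged from 0 to 1 in Tsc1 L-/- against control, 5 to 7 in Cpt2 L-/- against control, 7 to 8 in DKO against control, 1 to 4 in DKO against Cpt2 L-/-, 5 to 7 in DKO against Tsc1 L-/-, 0 to 0 in the Tsc1 by Cpt2 interaction, 4 to 5 in Ppara KO against control, 0 to 3 in Cpt2 L-/- Ppara KO against Cpt2 L-/-, 2 to 5 against Ppara KO and 1 to 4 in the Cpt2 by Ppara interaction. The share of all genes called moved too, from 10.3% to 19.9% in DKO against Cpt2 L-/- and from 8.28% to 21.6% in Cpt2 L-/- Ppara KO against Cpt2 L-/-. It ranged from 12.4% to 29.8% in Cpt2 L-/- Ppara KO against Ppara KO and from 17.3% to 27.2% in the Cpt2 by Ppara interaction. The cause was not tested.

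Same-numbered libraries showed no consistent likeness, as their deviations correlated between -0.27 and 0.27 over 48 pairs and exceeded 0.1 in 16. These 48 count the pairs of control with Cpt2 L-/- libraries once in each set. With the replicate block 2 genes were called in DKO against Cpt2 L-/- and 2 in Cpt2 L-/- Ppara KO against Cpt2 L-/-.

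Over all genes, the 24-library fit called 400 in Tsc1 L-/- against control, where 906 were called in the fit of 16, and 2798 against 4235 in Cpt2 L-/- against control, 1065 against 2494 in DKO against Cpt2 L-/- and 65 against 324 in the Tsc1 by Cpt2 interaction. DESeq2 called 745 and limma with 0.1 called 192 in that interaction. With 2 groups, 466 were called in Tsc1 L-/- against control and 111 against 3475 in Cpt2 L-/- Ppara KO against Ppara KO. With limma on FPKM the median log2 fold change of all genes moved by 0.13 to 0.18 in DKO against control, to 0.15 and 0.19, and with a pseudocount of 0.1 by 0.11 each in Cpt2 L-/- against control, DKO against Tsc1 L-/- and Cpt2 L-/- Ppara KO against Ppara KO. Depth limits the lowest levels, such as Nr0b2 in DKO livers at 1 to 32 reads.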
